A study of Mus musculus with 10 samples.

Results

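Tenomodulin (Tnmd) and chondromodulin (Cnmd) are 2 related genes, and they were read out here in Achilles tendon RNA from mice with a conditional deletion of Mkx. Both were found by their Ensembl identifiers, so the 2 members stand among 32285 genes of the count table, and both passed the filter on low counts, as did 16017 genes in all. The series holds 10 libraries of 3 genotypes, and every mouse received tamoxifen at 20 mg/kg at 6 weeks of age, with the tendon taken 4 weeks later. The conditional knockout was Mkx-CreER/flox (n = 3), which joins an Mkx-CreER allele, the source of a tamoxifen-activated Cre recombinase, with an Mkx allele flanked for removal by Cre. The controls were Mkx-CreER/+ (n = 3), which has the Cre but no floxed allele, and Mkx flox/+ (n = 4), which has the floxed allele but no Cre. The protein made from Mkx is Mohawk, a homeobox factor that regulates tendon cell genes. The sources used here do not say whether the CreER allele itself lowers Mkx or which exons the floxed allele loses. Libraries are numbered as in the count table's columns, and nothing in the labels says whether a library is 1 animal or a pool.

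Tnmd and Cnmd encode type II membrane proteins whose extracellular part holds a BRICHOS domain followed by a cysteine-rich C-terminal domain, and that C-terminal domain inhibits the growth of endothelial cells. Tenomodulin is a late marker of tendon and ligament cells and is widely used as one, with scleraxis (Scx) and Mohawk both described as acting upstream of it. Chondromodulin is made by chondrocytes, is cut so that its C-terminal part is released into the matrix, and is known as a factor that keeps cartilage free of vessels.

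Tnmd (ENSMUSG00000031250) lies at chrX:133850980-133865577 on the plus strand (mm10), has 7 exons in its coding transcript and 1353 bases of exon. Cnmd (ENSMUSG00000022025) lies at chr14:79637690-79662170 on the minus strand, has 7 exons in its longest coding transcript and 1843 bases of exon over 5 transcripts. No other annotated gene shares exon bases with either, on either strand. In all 10 libraries the Y-linked gene Ddx3y was present (270 to 1389 counts) while Xist had 0 to 15 counts, which is the pattern of male RNA, so the X-linked Tnmd was compared between libraries of 1 sex.

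The stretches around the start sites of both genes are shown because the 2 relatives varied together across libraries and because the factors named above bind short, recognisable DNA motifs. They come from RefSeq (GRCm38.p6, the assembly of mm10), run 5′ to 3′ on the strand of the gene, and hold 250 bases before and 50 bases from the start site. The windows are chrX:133850758-133851057 (plus strand) and chr14:79662134-79662433 (minus strand). Capitals mark the E-box CANNTG, the motif of basic helix-loop-helix factors such as scleraxis.
Tnmd: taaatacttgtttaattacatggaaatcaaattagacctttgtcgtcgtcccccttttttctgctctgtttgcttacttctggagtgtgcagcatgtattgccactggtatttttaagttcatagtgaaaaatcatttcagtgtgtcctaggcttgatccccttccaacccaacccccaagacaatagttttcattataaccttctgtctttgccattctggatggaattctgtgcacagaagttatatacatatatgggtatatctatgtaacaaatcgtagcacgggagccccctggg
Cnmd: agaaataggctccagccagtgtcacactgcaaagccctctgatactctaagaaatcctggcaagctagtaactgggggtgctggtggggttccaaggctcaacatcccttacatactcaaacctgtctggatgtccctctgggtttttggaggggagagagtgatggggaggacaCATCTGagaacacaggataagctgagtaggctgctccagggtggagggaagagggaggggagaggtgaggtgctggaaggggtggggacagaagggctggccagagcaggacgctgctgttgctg

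The Cnmd window held 1 E-box, CATCTG at position -75 from the start site, and the Tnmd window held 0. Of 32841 windows of the same length, 72.3% held at least 1 E-box. The motif ACANNTGT of Iroquois-type homeobox factors, to which Mohawk is related, contains an E-box and was in 7.4% of windows, and the Sox motif AACAAT was in 10.7%. Neither of the latter was in either window, with both strands searched. These matches describe letters within 300 bases only.

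The libraries held 8680934 to 22656417 counts. Mkx, the targeted gene, checked the labels: it measured 26.1, 32.4 and 30.5 CPM (read counts scaled to library size, with TMM factors) in Mkx-CreER/flox 1, 4 and 5, against 91.4 to 93.8 CPM in Mkx-CreER/+ and 120.9 to 187.4 CPM in Mkx flox/+. The 32 skeletal muscle markers of the list used here took 8.14% to 12.7% of counts in Mkx-CreER/flox, 3.49% to 8.84% in Mkx-CreER/+ and 1.82% to 5.63% in Mkx flox/+, with library Mkx-CreER/flox 1 at the top. The labelled tissue was checked by 24 tendon cell genes, which summed to 48400 to 68050 CPM in Mkx-CreER/flox, 78240 to 103800 in Mkx-CreER/+ and 126200 to 179000 in Mkx flox/+, with none at 0. In bulk RNA, fewer tendon cells and less of a transcript per tendon cell cannot be told apart.

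Tnmd was an abundant transcript in every genotype. Per kilobase of exon it measured 356 ± 89.5 CPM in Mkx flox/+ (SD, n = 4), 173 ± 112 in Mkx-CreER/flox (n = 3) and 221 ± 39.99 in Mkx-CreER/+ (n = 3). Among 16013 genes with a known exon length its rank by that measure was 77, 166 and 136 in the same order. By library, Tnmd measured 583.9, 423.9, 339.5 and 581.6 CPM in Mkx flox/+ 1 to 4. It measured 345.3, 313.0 and 239.7 CPM in Mkx-CreER/+ 1, 2 and 4. It measured 408.9, 152.0 and 142.5 CPM in Mkx-CreER/flox 1, 4 and 5. Libraries 4 and 5 of the conditional knockout were thus lower than all 7 controls, while library 1 lay inside the range of Mkx flox/+ and above all 3 Mkx-CreER/+ libraries. With 1928 to 5999 counts behind each value, the exact Poisson 95% interval of Mkx-CreER/flox 1 was 397 to 421 CPM and that of Mkx-CreER/flox 4 was 146.7 to 157.5 CPM, so counting error does not cover that gap.

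Cnmd was a rare transcript. Per kilobase of exon it measured 2.33 ± 1.18 CPM in Mkx flox/+ (SD, n = 4), 0.269 ± 0.241 in Mkx-CreER/flox (n = 3) and 0.991 ± 0.350 in Mkx-CreER/+ (n = 3), and 38.6%, 5.43% and 21.6% of ranked genes lay below it. By library, Cnmd had 61, 54, 28 and 29 counts in Mkx flox/+ 1 to 4, which is 5.94, 6.13, 1.59 and 3.48 CPM. It had 28, 44 and 26 counts in Mkx-CreER/+ 1, 2 and 4, which is 2.07, 2.31 and 1.09 CPM. It had 11, 7 and 2 counts in Mkx-CreER/flox 1, 4 and 5, which is 0.995, 0.344 and 0.148 CPM. All 3 conditional knockout libraries were lower than all 7 controls, a pattern that 3.12% of the tested genes shared (3.81% lay above all 7). The gap was narrow at its edge: the exact Poisson 95% intervals of Mkx-CreER/flox 1 (0.497 to 1.78 CPM) and Mkx-CreER/+ 4 (0.714 to 1.60 CPM) overlapped. In Mkx-CreER/flox 5 the value lay under the 0.222 CPM that 3 counts give there. Intervals and floors cover counting error only.

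**Figure D1:**
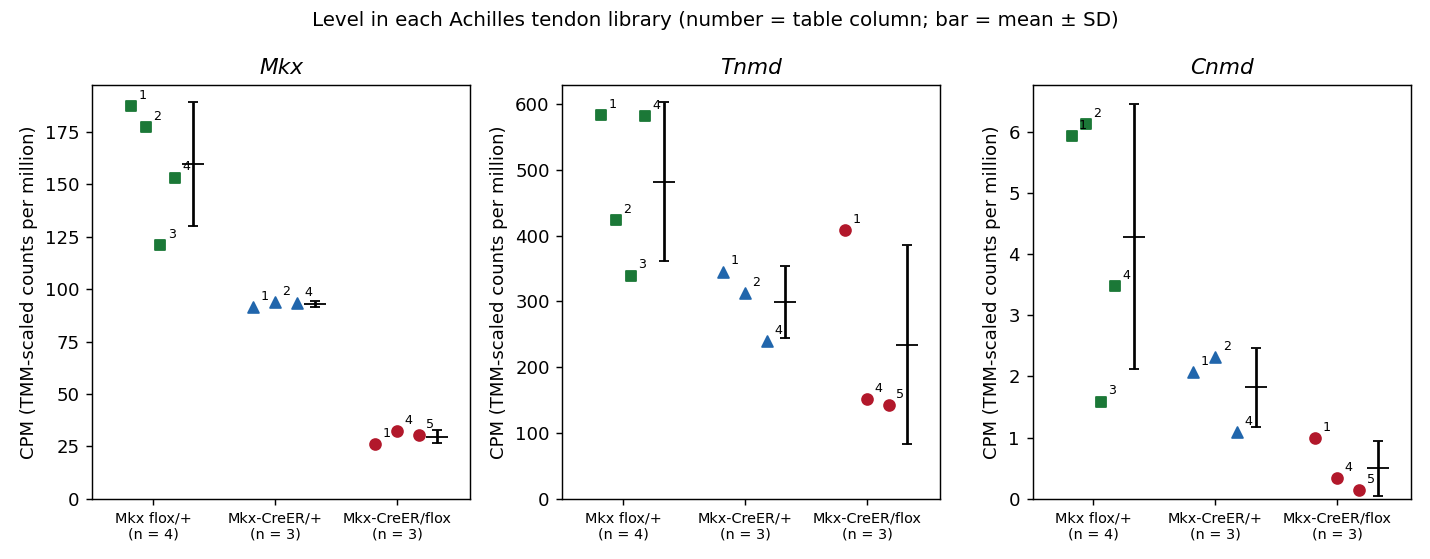
Levels of Mkx, Tnmd and Cnmd in CPM (vertical axes, linear and starting at 0) in each library of the 3 genotypes (horizontal axes), with points numbered by table column and bars for the mean ± SD. Mkx separates the genotypes, Cnmd is lower in all 3 Mkx-CreER/flox libraries than in any control, and Tnmd is low in Mkx-CreER/flox 4 and 5 but 408.9 CPM in Mkx-CreER/flox 1.

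Set against both controls with equal weight, Cnmd fell in Mkx-CreER/flox and Tnmd did not pass the test. On the log2 scale Cnmd fell by 2.54, with an SE of 0.627 and an edgeR adjusted p of 0.0352, to 17.3% of the control level, and only 0.106% of tested genes had a lower fold change. Tnmd stood at -0.70 (SE 0.314, edgeR adjusted p = 0.228), or 61.7% of the control level. Of all genes tested, 4.65% changed in this comparison and 1.62% fell. Exact two-sided permutation tests on log2 CPM, over the 120 ways to choose 3 of 10 libraries, gave p = 0.00833 for Cnmd, the smallest they can give, and p = 0.0583 for Tnmd (0.05 and 0.1 adjusted over 12 tests).

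The Tnmd call depended on library Mkx-CreER/flox 1. Without it Tnmd stood at -1.39 (edgeR adjusted p = 0.0134). With all 10 libraries, limma voom with sample quality weights put Tnmd at -1.28 (adjusted p = 0.000936), and the weight of each library was not examined. Without Mkx-CreER/flox 4 or 5 the Tnmd value shrank to -0.46 and -0.45 (adjusted p of 0.527 and 0.442). Mkx-CreER/flox 1 also had the highest shares of muscle and mitochondrially encoded RNA (12.7% and 8.85% of counts). With the muscle score as a term Tnmd was -0.96 (adjusted p = 0.287), and the part of mitochondrial RNA was not tested. The Cnmd call was lost without Mkx-CreER/+ 1 (-2.499, adjusted p = 0.0762), Mkx-CreER/+ 2 (-2.43, 0.0801), Mkx-CreER/flox 4 (-2.31, 0.131), Mkx-CreER/flox 5 (-2.13, 0.0695), Mkx flox/+ 1 (-2.44, 0.0679) or Mkx flox/+ 2 (-2.42, 0.0646). It was also lost with the skeletal muscle score as a covariate (-2.401, adjusted p = 0.181) and with that score but without Mkx-CreER/flox 1 (-3.18, adjusted p = 0.0591), while the fold change itself remained negative in all 20 alternative fits.

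**Figure D2:**
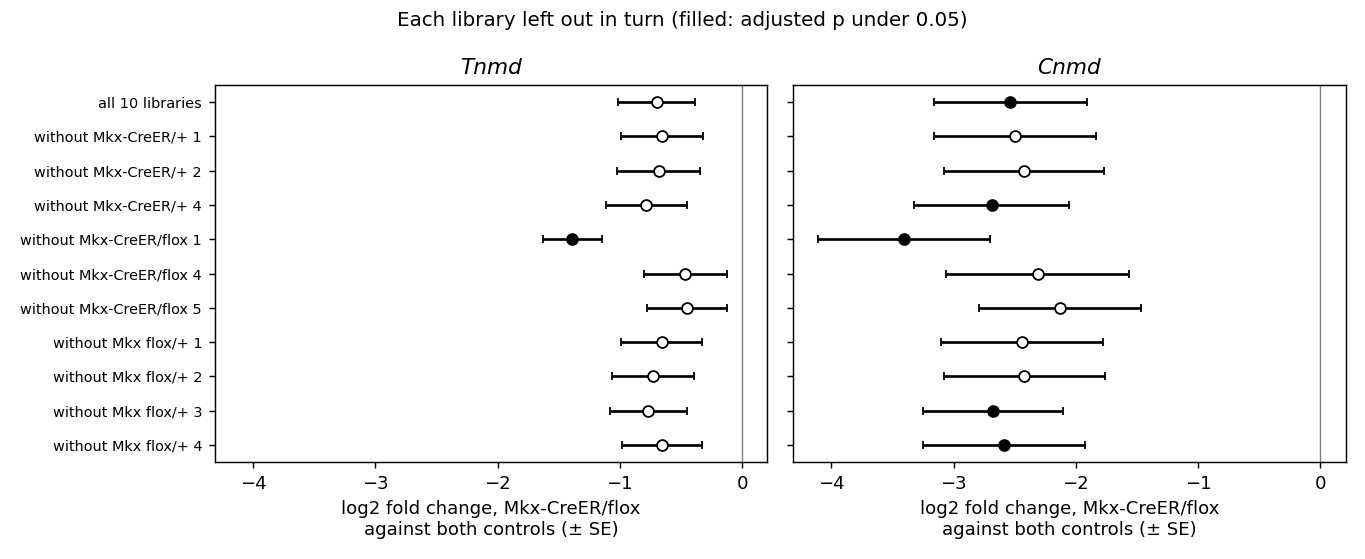
Log2 fold change (horizontal axes, ± SE from the edgeR fit) of Tnmd and Cnmd in Mkx-CreER/flox against both controls with all 10 libraries and with each library left out in turn (vertical axis), where filled points have an adjusted p under 0.05. Tnmd passes only without Mkx-CreER/flox 1, and Cnmd lies between -3.41 and -2.13 throughout and passes in 4 of the 10 omissions.

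Against Mkx flox/+ alone the differences were wider. The level of Cnmd was 11.3% of that control, a log2 fold change of -3.15 (SE 0.667, edgeR adjusted p = 0.0147), in a comparison in which 7.27% of tested genes changed, 2.90% lower and 4.37% higher. The call held in 9 of the 10 omissions and was lost without Mkx-CreER/flox 4 (-2.92, adjusted p = 0.0582) and when the muscle score was added to the fit (-2.95, adjusted p = 0.155). Tnmd stood at -1.04 (SE 0.344, edgeR adjusted p = 0.0853), or 48.6% of that control. It was called in 4 of 20 alternatives: in DESeq2 (-1.03, adjusted p = 0.024), in limma voom (-1.60, adjusted p = 0.000436), without Mkx-CreER/flox 1 (-1.73, adjusted p = 0.004), and without that library plus the muscle score (-1.73, adjusted p = 0.0195). The exact permutation p was 0.0286 for Cnmd, the smallest that 3 against 4 libraries allow, and 0.0571 for Tnmd.

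Against Mkx-CreER/+, the control that shares the CreER allele, neither gene passed. Cnmd stood at -1.92 (SE 0.68, edgeR adjusted p = 0.343), or 26.4% of that control. Its 3 conditional knockout libraries lay below the 3 controls, as part of the order against all 7 controls that 3.12% of tested genes shared. The share of genes with that order against these 3 controls alone was not counted. Tnmd stood at -0.35 (SE 0.359, edgeR adjusted p = 0.78), or 78.3%, with overlapping groups. In this comparison edgeR called 0.00624% of genes, which is Mkx alone, while DESeq2 called 126 genes. The exact permutation test of 3 against 3 libraries cannot go below 0.1, which is what Cnmd gave; Tnmd gave 0.4. In limma voom, Tnmd passed (-0.97, adjusted p = 0.0373) and Cnmd did not (-2.45, adjusted p = 0.0728). DESeq2 gave no adjusted p for Cnmd in this comparison, and Cnmd was called in 0 of the 19 alternatives that gave one.

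Between the controls, both genes were lower in Mkx-CreER/+ than in Mkx flox/+ by amounts that did not pass. Tnmd stood at -0.69 (SE 0.34, edgeR adjusted p = 1) and Cnmd at -1.22 (SE 0.577, edgeR adjusted p = 0.993), which leaves 62.1% and 42.8% of the Mkx flox/+ level. Mkx itself stood at -0.78 (SE 0.176, edgeR adjusted p = 0.489). EdgeR called 0% of genes here (0 of 16017, with 798 at an unadjusted p under 0.05), and DESeq2 called 37. The Tnmd ranges met at 1 library on each side, Mkx-CreER/+ 1 at 345.3 CPM and Mkx flox/+ 3 at 339.5 CPM. For both genes the means had the order Mkx flox/+, Mkx-CreER/+, Mkx-CreER/flox, as for Mkx, but in edgeR no neighbours in that order passed for either gene, and the ends of the order passed for Cnmd. In limma voom the neighbours Mkx-CreER/+ and Mkx-CreER/flox passed for Tnmd, as given above.

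The difference in response between the relatives was tested as a ratio within each library. Cnmd had 10.2, 14.5, 4.69 and 5.98 counts per 1000 Tnmd counts in Mkx flox/+ 1 to 4 and 5.998, 7.39 and 4.56 in Mkx-CreER/+ 1, 2 and 4. It had 2.43, 2.26 and 1.04 in Mkx-CreER/flox 1, 4 and 5, below every control, Mkx-CreER/flox 1 included. The log2 ratio of Cnmd to Tnmd was -8.59 ± 0.341 (SD, n = 3) in Mkx-CreER/flox and -7.07 ± 0.567 (n = 7) in the controls, a difference of -1.52 (exact permutation p = 0.00833, the smallest possible). Adjusted over the 16 ratio tests made, that p was 0.0914 and thus did not pass. Against Mkx flox/+ the difference was -1.69 (exact permutation p = 0.0286) and against Mkx-CreER/+ -1.29 (exact permutation p = 0.1). Between the controls it was -0.39 (exact permutation p = 0.457).

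Across the 10 libraries the levels of Tnmd and Cnmd rose and fell together. Pearson's r of log2 CPM was 0.894 (permutation p = 0.00096, 0.0048 adjusted over 5 relations) and Spearman's rho 0.806 (permutation p = 0.00717, adjusted 0.0358). With the mean of each genotype subtracted, r was 0.796. Not every pair of libraries within a genotype followed it: Mkx flox/+ 4 had more Tnmd but less Cnmd than Mkx flox/+ 2. Without Mkx-CreER/flox 4 and 5, the libraries farthest from the Tnmd median, r was 0.682 (n = 8, permutation p = 0.0641), a value still positive that no longer passed. Without Mkx-CreER/flox 1 it was 0.946. A single genotype held too few libraries for a value of its own. The permutations moved libraries across genotypes, so their p-values include differences between genotypes, and the r of 0.796 was not tested. Genes outside the family resembled each member more closely, as given below.

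**Figure D3:**
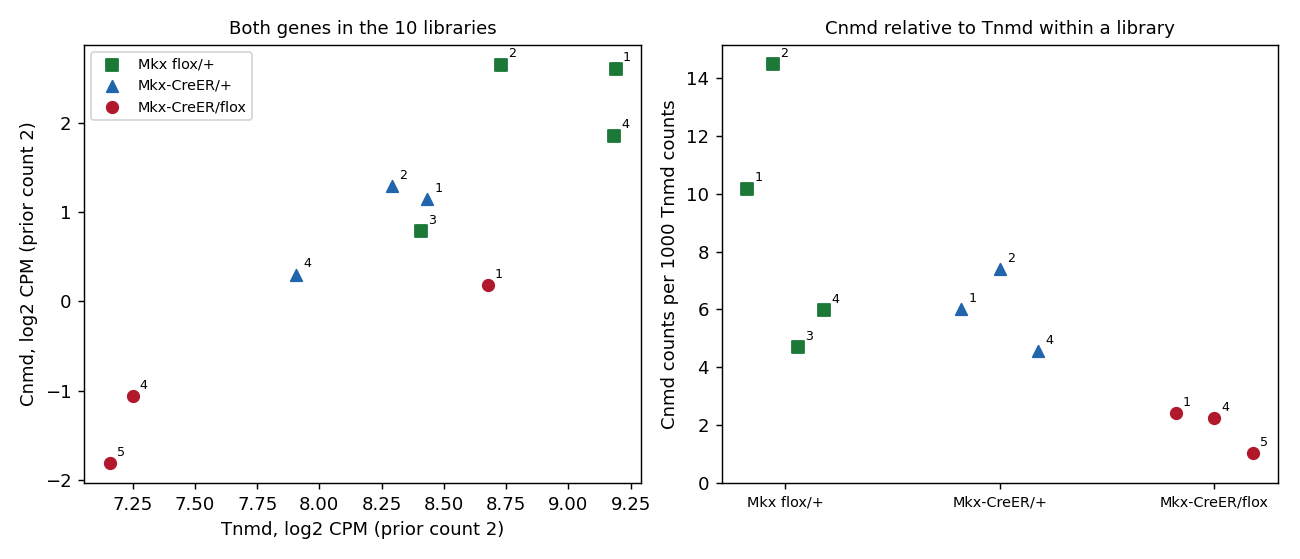
Left, Cnmd against Tnmd in log2 CPM (prior count 2) for the 10 libraries, numbered by table column. Right, Cnmd counts per 1000 Tnmd counts (vertical axis, starting at 0) by genotype: the Mkx-CreER/flox libraries lie between 1.04 and 2.43, all below the controls at 4.56 to 14.5.

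Each relative was also set beside genes of the cells known to make it. Scx, the transcription factor that marks tendon cells and their progenitors, had 14.2 to 20.4 CPM in Mkx-CreER/flox, 13.5 to 14.9 in Mkx-CreER/+ and 20.6 to 53.7 in Mkx flox/+. The log2 ratio of Tnmd to Scx differed by -0.49 between Mkx-CreER/flox and the controls (exact permutation p = 0.2). It was -0.87 without Mkx-CreER/flox 1 (exact permutation p = 0.0556) and -0.19 without Mkx-CreER/flox 5 (exact permutation p = 0.639). Col1a2, a chain of type I collagen and the main fibril protein of tendon, fell by 1.48 (SE 0.331, edgeR adjusted p = 0.0282) against both controls, beside -0.70 for Tnmd. That call was lost without Mkx-CreER/+ 1 (-1.38, adjusted p = 0.0684), Mkx-CreER/+ 2 (-1.53, 0.0622), Mkx-CreER/flox 4 (-1.39, 0.0918) or Mkx flox/+ 1 (-1.46, 0.0561), with the 7 controls as 1 group (-1.70, 0.0574) and when the muscle score was added (-1.54, 0.119). The log2 ratio of Tnmd to Col1a2 differed by 0.63 toward higher values in Mkx-CreER/flox (exact permutation p = 0.075), and by 0.87 against Mkx flox/+ alone (exact permutation p = 0.0286, adjusted 0.0914), neither of which passed after adjustment. Mkx-CreER/flox 1 had the highest ratio of all 10 libraries, and without it the difference from Mkx flox/+ was 0.53 (exact permutation p = 0.133).

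Sox9, the transcription factor of chondrocytes and of the tendon attachment, was not lower with Cnmd. It measured 17.9 to 31.6 CPM in Mkx-CreER/flox, 11.8 to 29.2 in Mkx-CreER/+ and 14.8 to 20.1 in Mkx flox/+ (log2 fold change 0.38 against both controls, edgeR adjusted p = 0.432). The log2 ratio of Cnmd to Sox9 was lower by 2.82 in Mkx-CreER/flox (exact permutation p = 0.0167, adjusted 0.0914 over the 16 ratio tests, which did not pass). Across the 10 libraries Cnmd and Sox9 had a negative r of -0.589 (permutation p = 0.0712, adjusted 0.0918), with rho at -0.552 (permutation p = 0.104), and r was -0.251 without the 2 libraries farthest from the Sox9 median. Tnmd and Scx had r = 0.696 (permutation p = 0.0264, adjusted 0.066) and rho = 0.673 (permutation p = 0.0387), and r was 0.344 without Mkx flox/+ 1 and 4, which hold the high Scx values. With the skeletal muscle score, r was -0.333 for Tnmd (permutation p = 0.346) and -0.589 for Cnmd (permutation p = 0.0734), the latter -0.0904 with genotype means subtracted. The corresponding rho values were -0.394 (permutation p = 0.265) and -0.552 (permutation p = 0.106), and r without Mkx flox/+ 1 and 2 was 0.117 and -0.128.

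The genes whose log2 CPM resembled Tnmd most over the 10 libraries, ranked by Pearson's r among 12382 genes, were Ppic (0.96), Plpp1 (0.95), Tspan3 (0.95), Lhfp (0.95) and Syt9 (0.94). Ppic encodes cyclophilin C, Plpp1 a phospholipid phosphatase, Tspan3 a tetraspanin and Syt9 a synaptotagmin. With genotype means subtracted their r lay between 0.886 and 0.932, and none of the 5 passed the test against both controls (log2 fold changes of -0.27 to -0.47, edgeR adjusted p of 0.224 to 0.449). For Cnmd they were Tlcd1 (0.95), Sphk1 (0.95), Cpq (0.94), Mthfd2 (0.93) and Neurl3 (0.93). Sphk1 encodes sphingosine kinase 1, Cpq a carboxypeptidase and Mthfd2 a mitochondrial folate enzyme. Of these, Cpq fell by 0.66 (SE 0.153, edgeR adjusted p = 0.0303) and Neurl3 by 1.07 (SE 0.291, edgeR adjusted p = 0.0498), and the others stood at -0.53 to -0.94. The ranking used all 10 libraries, genotype differences included, so the choice itself favoured genes that are lower in Mkx-CreER/flox. Over all genes tested, 1.62% fell. Neurl3 kept its call in 1 of the 10 omissions and Cpq in 3. The libraries differ in genotype, muscle share and depth together, and these values describe resemblance only.

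The BRICHOS family was listed whole. Of 10 listed members 6 passed the filter on low counts, and 2 of the 6 fell (Cnmd and Itm2c) while 4 did not pass. The median fold change of the 6 was -0.58, beside 0.02 for all genes tested, of which 1.62% fell and 3.03% rose. The 6 include Tnmd and Cnmd themselves, so the count and the median are not separate from the results above. Of the rest only Itm2c passed, and Itm2a and Gkn3 stood above 0. Itm2c, an integral membrane protein best known from brain, measured 81.6 ± 27.1 CPM in Mkx-CreER/flox (SD, n = 3), against 127.5 ± 10.9 for the 3 Mkx-CreER/+ and 183 ± 20.1 for the 4 Mkx flox/+ libraries. It fell by 0.90 (SE 0.2, edgeR adjusted p = 0.0268), a call lost without Mkx-CreER/flox 1 (-0.68, adjusted p = 0.0531), Mkx-CreER/flox 4 (-0.98, 0.0657), Mkx-CreER/+ 1 (-0.93, 0.0626) or Mkx-CreER/+ 2 (-0.87, 0.0685). With the muscle score in the fit it was lost too (-0.93, adjusted p = 0.113), and 0 genes of the family fell. Itm2b, whose human counterpart is mutated in familial dementias, measured 1039 ± 275, 1380 ± 324 and 1477 ± 131 CPM in the same order of genotypes, and its mean per kilobase of exon (380, 505 and 541 CPM) was above that of Tnmd in each. It stood at -0.46 (edgeR adjusted p = 0.253). Itm2a, like Gkn3 picked after its values were seen and known from cartilage and muscle differentiation, stood at 0.22 (edgeR adjusted p = 0.755) and at -0.36 without Mkx-CreER/flox 1.

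Gkn3, a gastrokine also known from arterial endothelium, stood at 2.30 with a wide error (SE 1.14, edgeR adjusted p = 0.288). Its levels in Mkx-CreER/flox ran from 0 to 5.99 CPM. The remaining members were near 0: Bricd5 had 0 counts in all 10 libraries, where 3 counts correspond to 0.126 to 0.36 CPM, Gkn2 had 1 count in all, and the lung surfactant gene Sftpc had 5. Gkn1 had 0 counts in Mkx-CreER/flox and at most 0.568 CPM elsewhere.

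**Figure D4:**
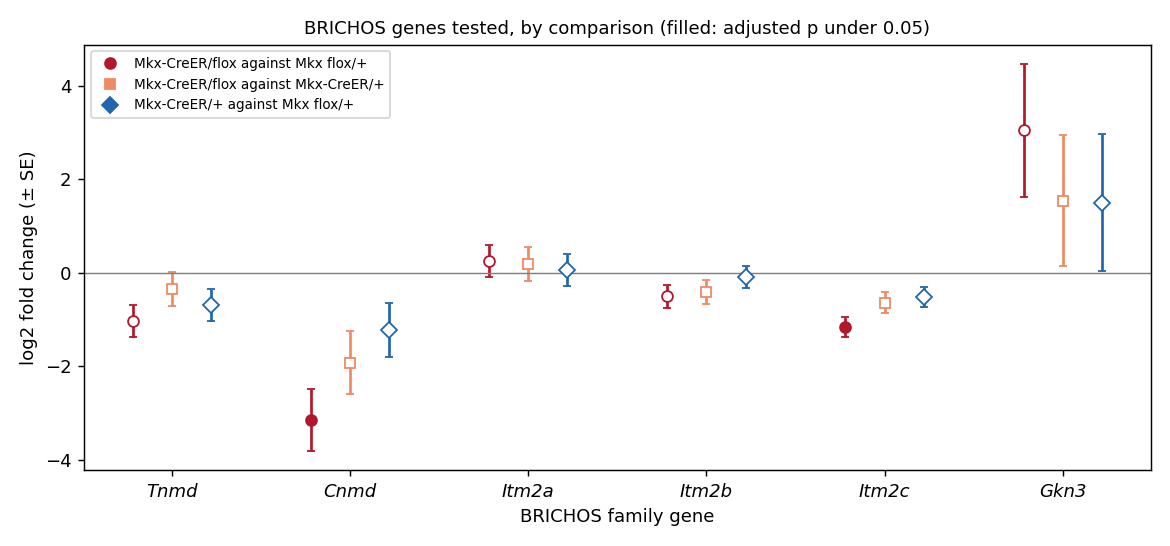
Log2 fold change (vertical axis, ± SE from the edgeR fit) of the 6 BRICHOS genes tested, in the 3 comparisons of single genotypes, with filled symbols for an adjusted p under 0.05. Cnmd and Itm2c pass against Mkx flox/+, no gene passes in the other comparisons, and Gkn3 has the widest errors.

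Of 24 tested tendon cell genes, a list without Tnmd, 7 fell against both controls (Mkx, Kera, Wif1, Fmod, Col1a1, Col1a2 and Angptl7) and 1 rose (Chodl). Mkx is the targeted gene, so its fall was set by the design, and it is included in all counts of this list. The other 16 missed the threshold, and the median log2 fold change of the 24 was -0.59. Among all genes tested, 1.62% fell and 3.03% rose. Kera, a small leucine-rich proteoglycan that regulates collagen fibrils, fell by 2.01 (SE 0.264, edgeR adjusted p = 0.00467), and Wif1, a secreted Wnt inhibitor, fell by 1.23 (SE 0.215, adjusted p = 0.0156). Chodl, a membrane lectin, rose by 1.92 (SE 0.262, adjusted p = 0.00609), a call lost when the muscle score entered the fit (1.56, adjusted p = 0.0781). The Wif1 call was lost without Mkx-CreER/flox 4 (-1.18, adjusted p = 0.0583). Dcn (decorin), an abundant fibril proteoglycan, stood at -0.82 (adjusted p = 0.113). The number of tendon genes that fell ranged from 2 to 9 when single libraries were left out and was 3 once the muscle score entered the fit.

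Of 24 listed cartilage genes 18 were tested, 2 fell, 0 rose and 16 missed the threshold (median 0.23), beside 1.62% lower and 3.03% higher among all genes tested. Col11a2, a chain of the minor fibrillar collagen XI, fell by 1.73 (SE 0.366, edgeR adjusted p = 0.0268), and Chil1, a chitinase-like glycoprotein, fell by 1.69 (SE 0.394, adjusted p = 0.0307). With single libraries left out, the number of cartilage genes that fell ranged from 0 to 2 and the number that rose from 0 to 1. Without Mkx-CreER/flox 1, 0 fell and 1 rose. Limma voom called 4 lower and 6 higher, so the direction of the list depended on the method. Col11a2 kept its call in 7 of the 10 omissions and Chil1 in 3. Neither passed without Mkx-CreER/flox 1 (-1.41 and -1.84, adjusted p of 0.0659 and 0.0801). Nor did either pass without Mkx-CreER/flox 4 (-1.81 and -1.58, 0.0761 and 0.11) or with the muscle score in the fit (-1.89 and -1.69, 0.0674 and 0.139). Chad (chondroadherin), a leucine-rich matrix protein, stood at -0.78 (adjusted p = 0.0766), and Wwp2, a ubiquitin ligase, at 0.22 (adjusted p = 0.624). Col2a1, the main collagen of hyaline cartilage and chosen here after its values were seen, stood at 1.02 (SE 0.545, adjusted p = 0.326) and at -0.04 without Mkx-CreER/flox 4. Acan (aggrecan), likewise chosen afterwards, stood at -0.01 (SE 0.298, adjusted p = 0.988). Of the defining cartilage genes, Matn1 was at 0 in all Mkx-CreER/flox and Mkx-CreER/+ libraries.

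Because both proteins are known as inhibitors of vessel growth, the other secreted and matrix inhibitors were counted too. Of 22 tested, 6 fell (Serpinf1, Pf4, Sparc, Timp2, Sema3a and Thbs2), 2 rose (Col8a1 and Adamts8) and 14 missed the threshold (median -0.07). The shares over all genes tested were 1.62% lower and 3.03% higher. Serpinf1, which encodes pigment epithelium-derived factor, fell by 1.35 (SE 0.263, edgeR adjusted p = 0.0213). Sparc, a collagen-binding matricellular protein, fell by 1.32 (SE 0.309, adjusted p = 0.0306), and Timp2, a metalloproteinase inhibitor, by 0.99 (SE 0.231, adjusted p = 0.0306). Pf4, a chemokine also made by macrophages and platelets, fell by 1.25 (SE 0.283, adjusted p = 0.0289). Macrophage markers moved with it: 11 of 12 fell, with summed levels of 804 to 923 CPM in Mkx-CreER/flox, 1157 to 2781 in Mkx-CreER/+ and 1728 to 2762 in Mkx flox/+, and their part in these counts was not tested. The number of inhibitors that fell ranged from 0 to 6 with single libraries left out, was 3 without Mkx-CreER/flox 1 and 0 once the muscle score entered the fit. Summed, the inhibitors reached 16990 to 26870 CPM in Mkx-CreER/flox, 27040 to 36120 in Mkx-CreER/+ and 45900 to 55350 in Mkx flox/+. Dcn and Sparc were the most abundant members of that list, and the sums were not tested.

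Of 23 tested angiogenic factors and receptors, 3 rose (Kdr, Flt1 and Fgf1), 0 fell and 20 missed the threshold (median 0.40). Kdr and Flt1, the main receptors for vascular endothelial growth factor, rose by 0.72 (SE 0.158, edgeR adjusted p = 0.0268) and 0.67 (SE 0.151, adjusted p = 0.0282). Vegfa, their ligand and chosen after its values were seen, stood at 0.84 (SE 0.248, adjusted p = 0.0664) and at 0.37 without Mkx-CreER/flox 1. Of 22 endothelial cell markers, 3 rose (Kdr, Flt1 and the receptor phosphatase Ptprb) and 19 missed it (median 0.35). Their summed levels overlapped between genotypes, at 1226 to 1576 CPM in Mkx-CreER/flox, 1112 to 1402 in Mkx-CreER/+ and 927.5 to 1300 in Mkx flox/+, with no marker at 0. The angiogenic factors and receptors summed to 1435 to 1499, 1107 to 1316 and 938.1 to 1191 CPM in the same order. There Mkx-CreER/flox did not overlap the controls, and the sums were not tested. Among single genes tested, 3.81% lay above all 7 controls. Epas1 and Cxcl12 were the most abundant members of the angiogenic list, and neither passed (edgeR adjusted p of 0.23 and 0.166). Of all genes tested 3.03% rose in this comparison. With single libraries left out, the number that rose ranged from 0 to 5 in the angiogenic list and from 0 to 3 in the endothelial list. In the fit that leaves out Mkx-CreER/flox 1, and in the fit that adds the muscle score, 0 genes of either list rose. The part of muscle, whose markers were highest in Mkx-CreER/flox 1, was not tested further.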

How the data were processed

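The authors deposited whole-number counts per gene for 10 bulk RNA-seq libraries of mouse Achilles tendon. Reads were trimmed with fastp and aligned to mm10 with STAR, per the submitters' processing notes; for versions, counting tool, annotation release and strand setting: not given in the sources used here. Columns name genotypes, by which they were grouped. Nothing says that libraries came from separate animals, so p-values measure only the spread between these libraries, which may be technical. Symbols and coordinates came from GENCODE (mm10), which paired 32235 of 32285 identifiers.

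Counts were filtered by filterByExpr, TMM-scaled and tested in edgeR 4.0.16 (R 4.3.3; robust quasi-likelihood, a term per genotype, all 10 libraries), with Benjamini-Hochberg adjustment over 16017 genes and a threshold of 0.05. The script was tested on simulated data. Log2 CPM and ratios used a prior count of 2 and exact two-sided permutation tests; correlations used 100000 permutations. Alternatives were DESeq2 1.42.0, limma 3.58.1 voom with sample quality weights, other scalings and filters, a muscle covariate, and each library left out. The genes, gene lists and tests were chosen with earlier results of these data known. Named genes were both members, Mkx, Scx, Sox9, Col1a2, the 5 genes likest each member, and from each list up to 4 called genes by smallest p and the 2 most abundant. Lists covered BRICHOS, tendon, cartilage, angiogenesis inhibitors, angiogenic factors, and endothelial, muscle, mitochondrial, erythroid, bone, macrophage, epidermis, adipocyte and Schwann cell markers.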

Additional observations from a re-analysis of the deposited data

How the results depend on the processing

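No paired analysis was possible because the count columns of Mkx-CreER/+ and Mkx-CreER/flox are numbered otherwise than the labels number the replicates. Both genes kept a negative log2 fold change against both controls in all 20 alternatives; Cnmd passed in 12 and Tnmd in 3. Under DESeq2 the genes called numbered 1459 (both controls), 126 (Mkx-CreER/+), 1866 (Mkx flox/+) and 37 (between controls), and Tnmd was -1.03 against Mkx flox/+. Under limma voom they numbered 3004, 734 and 2854 in the first 3 comparisons, where Tnmd was -1.28, -0.97 and -1.60. Against Mkx-CreER/+, 9 genes were called with no filter and 0 with only the groups compared. With the muscle covariate 12 (both controls) and 80 (Mkx flox/+) genes were called, Cnmd was -2.40 and -2.95 (calls lost), and Tnmd -0.96 and -1.38 (adjusted p of 0.287 and 0.184). With that covariate and Mkx-CreER/flox 1 left out, a setting chosen after seeing the data, 114, 8, 242 and 2 genes were called, Tnmd passed at -1.39 and -1.73 (adjusted p of 0.0345 and 0.0195), and Cnmd was -3.18 against both controls, its call lost (adjusted p = 0.0591). The cause of these shifts was not tested.

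With 1 library left out, genes called ranged from 64 to 1114 (both controls), 0 to 117 (Mkx-CreER/+) and 455 to 1585 (Mkx flox/+). Tnmd ranged from -1.39 to -0.45, -1.04 to -0.11 and -1.73 to -0.80, and Cnmd from -3.41 to -2.13, -2.80 to -1.52 and -4.02 to -2.74. Against both controls, the log2 ratio of Cnmd to Tnmd ranged from -1.66 to -1.33, Tnmd to Scx from -0.87 to -0.19, Tnmd to Col1a2 from 0.28 to 0.84 and Cnmd to Sox9 from -3.54 to -2.13. Against Mkx flox/+, Cnmd to Tnmd ranged from -1.93 to -1.41, Tnmd to Col1a2 from 0.53 to 1.09 and Cnmd to Sox9 from -4.06 to -2.66. The range of Tnmd to Scx is given below. Permutation tests of 2 against 4 or 3 against 3 libraries cannot pass there. With a prior count of 5, Cnmd to Tnmd was -1.26 against Mkx flox/+ (exact permutation p = 0.0571). Signs reversed in these ranges with 1 library left out: Tnmd to Col1a2 against Mkx-CreER/+ (-0.046 without Mkx-CreER/flox 1, up to 0.51), Tnmd to Scx against Mkx flox/+ (-0.63 to 0.056, the latter without Mkx-CreER/flox 5), Col2a1 (-0.039 without Mkx-CreER/flox 4, up to 1.49) and Wwp2 (-0.033 without Mkx-CreER/flox 5, up to 0.38). Itm2a ranged from -0.36 (without Mkx-CreER/flox 1) to 0.45, and was -0.22 under voom, -0.33 with the covariate and -0.57 with both changes. Acan ranged from -0.21 to 0.23, positive when Mkx-CreER/flox 1 (0.20), Mkx flox/+ 1 (0.07) or Mkx-CreER/+ 4 (0.23) was left out, and was 0.28 under voom, 0.24 with the covariate and 0.32 with both changes. Depth limits Cnmd, which had 2 to 11 counts in Mkx-CreER/flox.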

Other observations

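The remaining marker lists give the cell types beside tendon in these libraries, in Mkx-CreER/flox against both controls. Over all genes tested, 3.03% rose and 1.62% fell. Of 32 skeletal muscle markers 6 rose (median log2 fold change 0.60), and of 9 tested mitochondrially encoded genes 6 rose (median 1.22). Of 10 Schwann cell markers 1 rose, the cadherin Cdh19 (median 2.28), with summed levels of 495 to 2327 CPM in Mkx-CreER/flox, 443 to 1014 in Mkx-CreER/+ and 482 to 866 in Mkx flox/+. Of 4 tested epidermis markers 1 fell (Krtdap), with Krt5, Krt14 and Krt15 at 0 in every library. None of 5 tested erythroid, 5 tested bone and 8 adipocyte markers passed in edgeR.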
